A study of Caenorhabditis elegans with 2 samples.

Results

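The genes described here encode 10 Argonautes of Caenorhabditis elegans, the proteins that hold small RNAs and find the matching transcripts: csr-1, prg-1, hrde-1, wago-1, ergo-1, alg-3, alg-4, alg-1, alg-2 and rde-1. They were chosen by name from the small RNA pathways, and probes were assigned to them through the sequence name or RefSeq accession that the array gives each probe. All 10 were found, with 12 probes among 43579, out of 19807 named genes in all. The scanner flagged each of the 12 probes as well above background for both diets, so no member was lost to the filter on dim probes. The genes were placed in 3 groups from textbook knowledge. The germline group holds csr-1, prg-1, hrde-1, wago-1 and ergo-1, the sperm-linked group alg-3 and alg-4, and the somatic group alg-1, alg-2 and rde-1, which act broadly in the body.

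Total RNA came from whole young adult worms of the N2 strain raised at 20 °C on Lysinibacillus sphaericus isolated from soil, or on Escherichia coli OP50, the standard laboratory food. There was 1 one-colour array for each diet. No replicate exists, so no test between diets could be run, and a difference describes these 2 RNA samples only. In whole worms, fewer cells of a type and less RNA per cell cannot be told apart.

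Argonautes act in branches. Primary Argonautes such as PRG-1, ERGO-1, ALG-3, ALG-4 and RDE-1 carry a first small RNA to a transcript, and RNA-dependent RNA polymerases then copy secondary small RNAs from it. Worm-specific Argonautes such as WAGO-1, HRDE-1 and CSR-1 bind those secondary RNAs and silence or, in the case of CSR-1, protect the transcripts they match. ALG-1 and ALG-2 stand apart because they carry microRNAs.

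Signals are given as multiples of the 75th percentile of the array, which removes a common difference in brightness. That percentile was 3368 intensity units on the L. sphaericus-fed array and 1440 on the OP50-fed array. The median signals of the non-control spots were 367 and 245, a smaller ratio, so the difference in brightness varied with signal level. A single factor cannot remove that part. Each difference is a log2 value, the normalized signal of L. sphaericus-fed worms over that of OP50-fed worms. The error beside a single probe is the scanner software's own error model, which covers the measurement of a spot and not the spread between worm populations. Heights of different probes depend on the probe and are not compared between genes.

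The 2 arrays differed widely across the genome. Among the 15301 genes that could be compared, L. sphaericus feeding went with a signal higher by 2-fold or more in 22.1% and lower by 2-fold or more in 32.6%, together 54.7%. The median difference over these genes was −0.20 and the SD over genes was 1.61. Both arrays lay on 1 slide and were read in 1 scan.

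Of the 10 Argonautes, 6 were higher in L. sphaericus-fed worms by 2-fold or more, against 22.1% of all measured genes, and 2 were lower by as much, against 32.6%. The 6 were hrde-1, ergo-1, wago-1, alg-2, rde-1 and csr-1. Of these, csr-1 and rde-1 fell short of 2-fold with the 75th percentile over detected probes, quantile normalization and loess centring. That left 4 of 10 higher, with 3 of 5 in the germline group and 1 of 3 in the somatic group. In these settings, 17.2%, 26% and 24.7% of all measured genes were higher by 2-fold or more. The 2 on the lower side were both of the sperm-linked Argonautes. The remaining 2, prg-1 and alg-1, were within 2-fold, prg-1 just short of it. The germline group had a median of 2.05 with 4 of 5 members at least 2-fold higher, the somatic group a median of 1.08 with 2 of 3 higher, and the sperm-linked group a median of −2.05 with 2 of 2 lower.

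**Figure D1:**
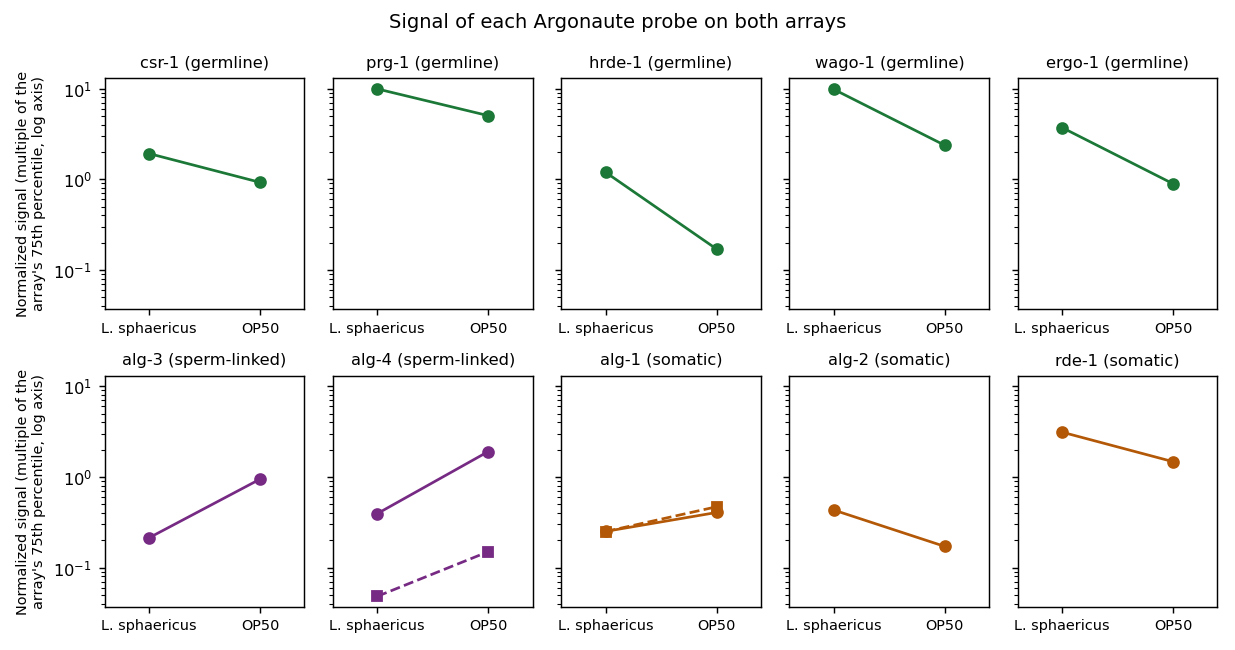
Normalized signal of each of the 12 Argonaute probes on the L. sphaericus-fed array (left point of each panel) and the OP50-fed array (right point), in multiples of the array's 75th percentile on a log axis. Each line is 1 probe, dashed for the second probe of alg-4 and of alg-1. The lines of the 5 germline genes slope down to the right, those of alg-3, alg-4 and alg-1 slope up, and those of alg-2 and rde-1 slope down.

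In the germline group, hrde-1 had the widest difference. HRDE-1 is the nuclear Argonaute that carries silencing from parents to offspring. Its normalized signal was 1.20 on the L. sphaericus-fed array and 0.170 on the OP50-fed array, 7.03-fold higher (log2 difference 2.81 ± 0.21, scanner error, 1 probe). Of all measured genes, 97.8% had a lower difference than hrde-1.

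The gene wago-1, whose product works with secondary small RNAs in germ granules, had a normalized signal of 9.82 on the L. sphaericus-fed array against 2.37 on the OP50-fed array, 4.14-fold higher (2.05 ± 0.20). ERGO-1 carries primary small RNAs of oocytes and embryos. Its gene had a normalized signal of 3.72 on the L. sphaericus-fed array and 0.892 on the OP50-fed array, 4.17-fold higher (2.06 ± 0.20). The differences of ergo-1 and wago-1 were 0.01 apart, less than their combined scanner error of 0.29.

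Lower down stood csr-1 and prg-1. CSR-1, which is essential for fertility, matches most genes that the germline expresses. Its gene had a normalized signal of 1.92 on the L. sphaericus-fed array against 0.925 on the OP50-fed array, 2.08-fold higher (1.05 ± 0.20). The csr-1 probe is named for the transcript F20D12.1b in the array design, and whether it also reads the other isoform was not tested. It was at 0.85 with detected probes, 0.99 with quantile normalization and 0.83 with loess centring. PRG-1 is the worm's Piwi protein and binds the piRNAs. The signal of prg-1 was 9.93 on the L. sphaericus-fed array and 5.04 on the OP50-fed array, 1.97-fold higher (0.98 ± 0.20). These genes lay 0.08 apart, again within the combined error, and both lay below the other 3 germline members by more than it.

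Both sperm-linked genes lay on the lower side. Worms that lay eggs by self-fertilisation make sperm first, as late larvae, and then switch to oocytes. ALG-3 and ALG-4 are close relatives that act with each other in spermatogenesis, where they are needed for full fertility of males. The probe of alg-3 had a normalized signal of 0.213 on the L. sphaericus-fed array against 0.945 on the OP50-fed array, 4.44-fold lower (log2 −2.15 ± 0.20). For alg-4, the brighter of 2 probes stood at 0.394 on the L. sphaericus-fed array and 1.91 on the OP50-fed array, 4.84-fold lower (−2.28 ± 0.20), and the dimmer one, named for the transcript ZK757.3c, at 0.0482 on the L. sphaericus-fed array and 0.150 on the OP50-fed array, 3.11-fold lower (−1.64 ± 0.21). All 3 probes of the pair pointed the same way. As a gene, alg-4 was at −1.96 (SD over 2 probes 0.45), 0.19 from alg-3 and within their combined error of 0.25. Being close copies, the 2 genes may share probe signal, which was not tested.

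Before any scaling the L. sphaericus-fed array was the brighter one, yet these 3 probes were dimmer there in plain intensity. The alg-3 probe read 718 on the L. sphaericus-fed array and 1360 on the OP50-fed array, and the brighter alg-4 probe read 1327 on the L. sphaericus-fed array and 2747 on the OP50-fed array. With no scaling, alg-3 and alg-4 were at −0.92 and −0.73, still below 0 but no longer 2-fold apart. The median difference of all genes was 1.03 in that setting.

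The somatic group was divided. ALG-1 and ALG-2 are the microRNA Argonautes, close copies that overlap in development, and their genes lay on opposite sides. Whether probes of the 2 genes share signal was not tested. The single probe of alg-2 had a normalized signal of 0.431 on the L. sphaericus-fed array against 0.171 on the OP50-fed array, 2.52-fold higher (1.33 ± 0.21). The 2 probes of alg-1 had signals of 0.251 and 0.250 on the L. sphaericus-fed array against 0.406 and 0.469 on the OP50-fed array, 1.62-fold and 1.88-fold lower, for a gene value of −0.80 (SD over 2 probes 0.15). The distance between alg-2 and alg-1 was 2.13 with a combined scanner error of 0.25. This distance does not depend on a common shift of either array, but the sign of alg-1 does. With no scaling alg-1 was at 0.43, and with scaling on ribosomal protein genes at 0.01. It stayed below the median of all genes in every setting tried (−0.85 to −0.32 relative to it), a comparison that a common shift cannot change.

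RDE-1 starts silencing by double-stranded RNA taken in from outside. The signal of rde-1 was 3.12 on the L. sphaericus-fed array and 1.48 on the OP50-fed array, 2.12-fold higher (1.08 ± 0.20), and at 0.88 with detected probes, 0.88 with quantile normalization and 0.74 with loess centring. Its difference was thus next to that of csr-1, 0.03 away, and far from alg-1, 1.88 away. Without rde-1, the median of the somatic group relative to all genes was 0.46 in place of 1.28.

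**Figure D2:**
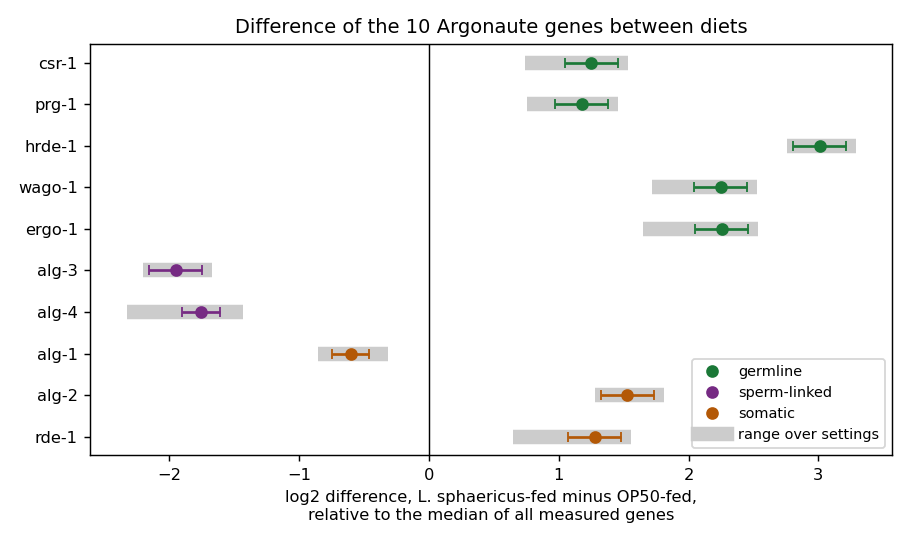
Log2 difference of each Argonaute gene, L. sphaericus-fed minus OP50-fed, set against the median over all genes (vertical line at 0). Points are coloured by group, bars are the scanner error and grey bands the range over the settings tried; alg-3 and alg-4 lie wholly to the left of alg-1, which lies left of 0, and the other 7 lie to the right.

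From the highest to the lowest difference the genes were hrde-1, ergo-1, wago-1, alg-2, rde-1, csr-1, prg-1, alg-1, alg-4 and alg-3. Of the 9 steps between neighbours, 4 were wider than the combined scanner error. They fell between hrde-1 and ergo-1 (0.75), wago-1 and alg-2 (0.72), prg-1 and alg-1 (1.78), and alg-1 and alg-4 (1.15). The scanner error leaves out the spread between probes of a gene, which for alg-4 was 0.45 (SD over 2 probes). The step from wago-1 to alg-2 depended on the setting. With quantile normalization wago-1 was at 1.95 and alg-2 at 1.82, and with loess centring alg-2, at 1.86, was above wago-1, at 1.81. The germline and somatic groups overlapped, since prg-1 and csr-1 were below rde-1 and alg-2. Neither overlapped the sperm-linked pair.

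Group medians can be set against each other without regard to a common shift of an array. The germline median was 4.10 above the sperm-linked median, a 17.2-fold gap (3.42 to 4.26 over the settings tried). Its lowest value came with loess centring, which also removes a difference that varies with brightness. The somatic median was 3.13 above the sperm-linked one (1.78 to 3.29). The germline median exceeded the somatic one by 0.97, but with 0.47 to 1.91 over the settings and overlapping members. Leaving out ergo-1 gave the lower end, and leaving out alg-2, which the match by sequence name alone does not find, the upper end.

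**Figure D3:**
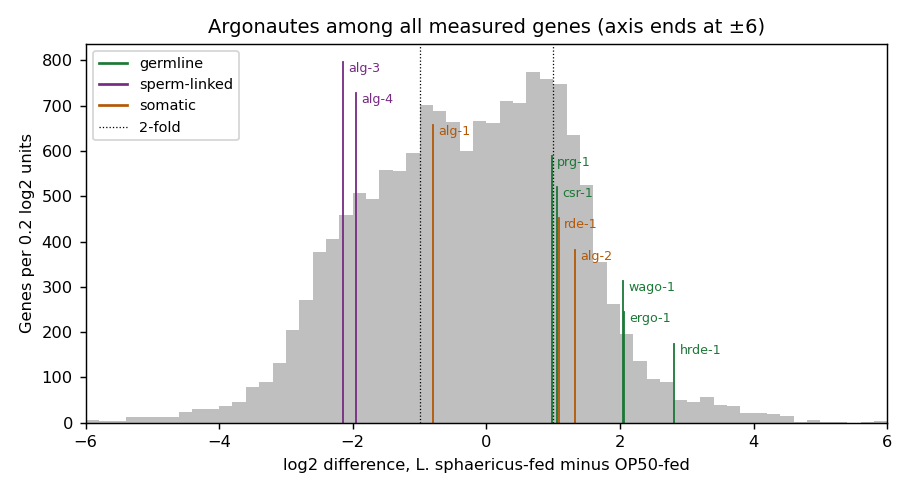
Number of measured genes by log2 difference, L. sphaericus-fed minus OP50-fed, in bins of 0.2 (grey), with the 10 Argonautes as coloured lines whose heights carry no value. Dotted lines mark 2-fold; hrde-1 at 2.81 is the member farthest right, alg-3 at −2.15 the one farthest left.

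Most other Argonautes of the worm lay on the higher side. Of 13 listed, 12 were measured, with 7 higher and 1 lower by 2-fold or more in L. sphaericus-fed worms (median 1.09, against −0.20 for all genes). Those were 58.3% and 8.33% of the 12, against 22.1% and 32.6% of all measured genes. Highest were wago-2 at 5.55-fold (log2 2.47 ± 0.20, 1 probe) and wago-4, which acts in germ granules in the inheritance of RNA interference, at 5.001-fold (2.32, SD over 4 probes 0.61). The 1 on the lower side was wago-10, an Argonaute known from spermatogenesis, with a normalized signal of 0.0485 on the L. sphaericus-fed array and 0.344 on the OP50-fed array, 7.08-fold lower (−2.82 ± 0.21, 1 probe). The other 4 were prg-2 at 0.98, wago-11 at 0.90, ppw-2 at 0.36 and sago-1 at −0.83. Whether probes of prg-1 and prg-2, or of wago-1 and wago-2, share signal was not tested. The sign of sago-1 turned with no scaling and that of wago-11 with the normexp background correction. The gene wago-5 passed the background flag only on the L. sphaericus-fed array, where it was at least 6.74-fold higher, taken against the lowest signal that passed this flag on the OP50-fed array.

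Partners of the germline Argonautes lay mostly on the higher side in L. sphaericus-fed worms, called upward here. Over all measured genes, 22.1% passed 2-fold upward and 32.6% downward. In the piRNA pathway, 13 of 16 measured genes (81.25%) passed 2-fold upward and 0 downward, with a median of 1.47. The gene simr-1, which helps piRNA targets reach the secondary pathway, was 7.11-fold higher and tost-1, of the complex that processes piRNA precursors, 4.72-fold higher. No piRNA pathway gene measured was below 0. Of 8 genes that work with CSR-1 or build the germ granules it lives in, 7 passed 2-fold upward and 0 downward, with a median of 1.35, led by the granule gene pgl-1 at 3.18-fold and the uridylyltransferase gene cid-1 at 3.15-fold. Of these 8, 7 also stand in other lists used here.

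The ERI complex makes the primary small RNAs of ERGO-1, ALG-3 and ALG-4. Of 10 genes listed for this branch, 6 (60%) were at least 2-fold higher and 0 lower on the L. sphaericus-fed array (median 1.15). Among all measured genes, 22.1% were higher and 32.6% lower by as much. The exonuclease gene eri-1 was 3.58-fold higher (1.84, SD over 5 probes 0.36) and the Tudor domain gene eri-5 2.88-fold higher. The ERI complex serves both the germline member ergo-1 at 2.06 and the sperm-linked alg-3 and alg-4, which were at −2.15 and −1.96.

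Among 17 genes of RNA-dependent RNA polymerases and of the mutator complex, which amplify secondary small RNAs, 10 (58.8%) passed 2-fold upward and 1 (5.88%) downward. Their median was 1.05. Over all measured genes the shares were 22.1% upward and 32.6% downward. The nucleotidyltransferase gene rde-3 was 3.68-fold higher and mut-16, the scaffold of mutator foci, 3.59-fold higher, while rrf-2, a homolog of the polymerases, was 3.93-fold lower. Of 7 measured nuclear silencing genes, which work with HRDE-1 or its relatives, 3 (42.9%) passed 2-fold upward and 0 downward, with a median of 0.63. Among the 3 were nrde-4 at 2.998-fold and set-32, of a family of histone methyltransferases, at 2.91-fold. The difference of hrde-1, 2.81, was above that of each of the 7.

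**Figure D4:**
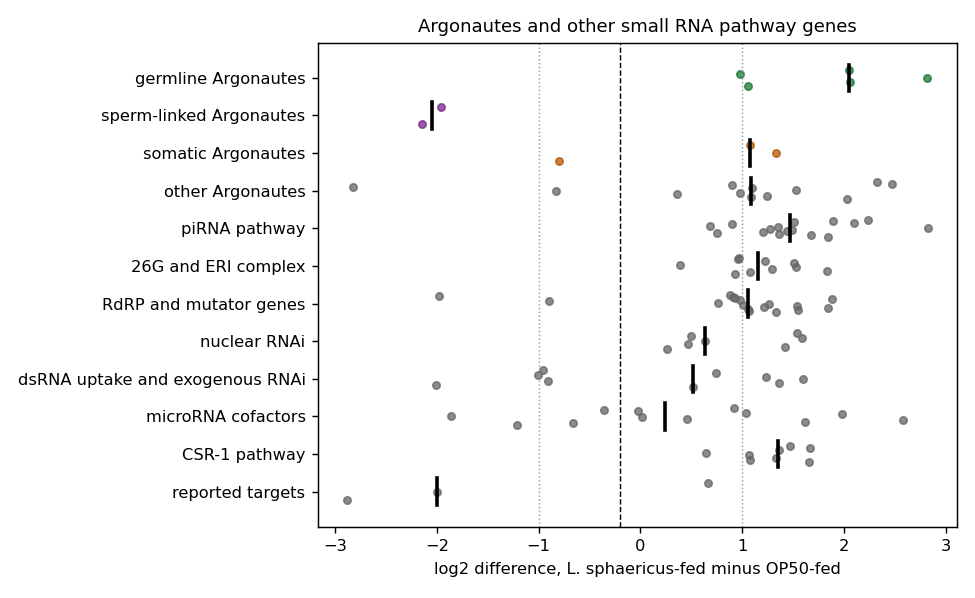
Log2 difference, L. sphaericus-fed minus OP50-fed, of the Argonaute groups (coloured) and of the other small RNA pathway lists (grey), each point a gene and each thick bar the median of its list. The dashed line is the median of all measured genes at −0.20 and dotted lines mark 2-fold; the medians run from 2.05 for germline Argonautes to −2.05 for the sperm-linked ones.

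Partners of the somatic members lay on both sides, as did all genes. Of 9 genes for uptake of double-stranded RNA and RNA interference from outside, the pathway of rde-1, 3 (33.3%) passed 2-fold upward and 2 (22.2%) downward, near the 22.1% and 32.6% of all measured genes, with a median of 0.52. On the higher side were rsd-6 and rsd-2, known for RNA interference in the germline, at 3.02-fold and 2.58-fold. On the lower side were drh-2, a homolog of the Dicer-related helicases, at 4.02-fold and sid-2, the intestinal receptor for double-stranded RNA, at 2.01-fold, the sign of sid-2 turning with no scaling. Of 12 genes that work with the microRNA Argonautes, 4 (33.3%) passed 2-fold upward and 2 (16.7%) downward, against 22.1% and 32.6% of all measured genes, with a median of 0.24. Shares of lists this small and this near the background say nothing particular about these partners. The Drosha gene drsh-1 and its partner pash-1, which cut microRNA precursors in the nucleus, were 5.99-fold and 3.95-fold higher. Lower were pab-1, the gene of a poly(A)-binding protein, at 3.64-fold (−1.86, SD over 8 probes 0.55) and ain-1, whose GW182-type protein binds ALG-1 and ALG-2, at 2.32-fold (−1.22, SD over 8 probes 0.31), ain-1 being at 0.01 with no scaling.

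Over 88 measured genes of these 8 lists, the 10 members not counted, 50 (56.8%) were higher by 2-fold or more and 6 (6.82%) were lower by as much, against 22.1% and 32.6% of all measured genes. Their median was 1.29 above that of all genes (0.95 to 1.57 over the settings tried). The genes of these lists closest in difference to the germline median of 2.05 were alg-5 (2.03), tofu-4 (2.10) and pash-1 (1.98). Those closest to the sperm-linked median of −2.05 were drh-2 (−2.01), rrf-2 (−1.98) and pab-1 (−1.86). Those closest to the somatic median of 1.08 were drh-3, nrde-3 and ekl-1, at 1.08, 1.09 and 1.07. With 2 arrays, likeness here means only a similar difference.

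Of 4 genes reported as targets of worm small RNAs, 2 of 3 measured were at least 2-fold lower in L. sphaericus-fed worms, a direction that 32.6% of all measured genes share. Both are reported targets of the ERGO-1 branch. E01G4.5 had a normalized signal of 0.236 on the L. sphaericus-fed array against 1.74 on the OP50-fed array, 7.37-fold lower (log2 −2.88, SD over 2 probes 0.12), and K02E2.6 had 0.997 on the L. sphaericus-fed array and 3.99 on the OP50-fed array, 4.004-fold lower (−2.001 ± 0.20, 1 probe). Of the reported piRNA targets, bath-45 was at 0.67, and xol-1 was well above background only on the L. sphaericus-fed array. Its signal there, 0.0111, was only 1.02-fold above the lowest signal that passed this flag on the OP50-fed array. Small RNAs themselves were not measured.

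Markers of germ cells differed in the same directions as these groups. Of 12 germline markers, 10 (83.3%) were at least 2-fold higher and 0 lower on the L. sphaericus-fed array (median 1.42). Of all measured genes, 22.1% were higher and 32.6% lower by as much. Among the 12, 6 also stand in the pathway lists above. The summed normalized signal of the 12 was 66.5 on the L. sphaericus-fed array and 29.8 on the OP50-fed array. Of 10 oocyte markers, 9 were at least 2-fold higher (median 2.29), with summed signals of 203 on the L. sphaericus-fed array and 40.97 on the OP50-fed array. Sperm markers lay on the other side, with 13 of 14 at least 2-fold lower and 0 higher (median −2.21) and summed signals of 3.46 on the L. sphaericus-fed array against 10.9 on the OP50-fed array. All of these markers were measured, and none was at background on either array. The dimmest on the L. sphaericus-fed array were spe-38 (0.0105), spe-42 (0.0136) and fer-1 (0.0150). Their differences are less certain in size, since the lowest signal flagged well above background on that array was 0.00765. The median of the germline Argonautes, 2.05, thus stood between those of the germline and oocyte markers, and the median of the sperm-linked pair, −2.05, stood 0.16 from that of the sperm markers. The part of germ cell number or stage in these differences was not tested.

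**Figure D5:**
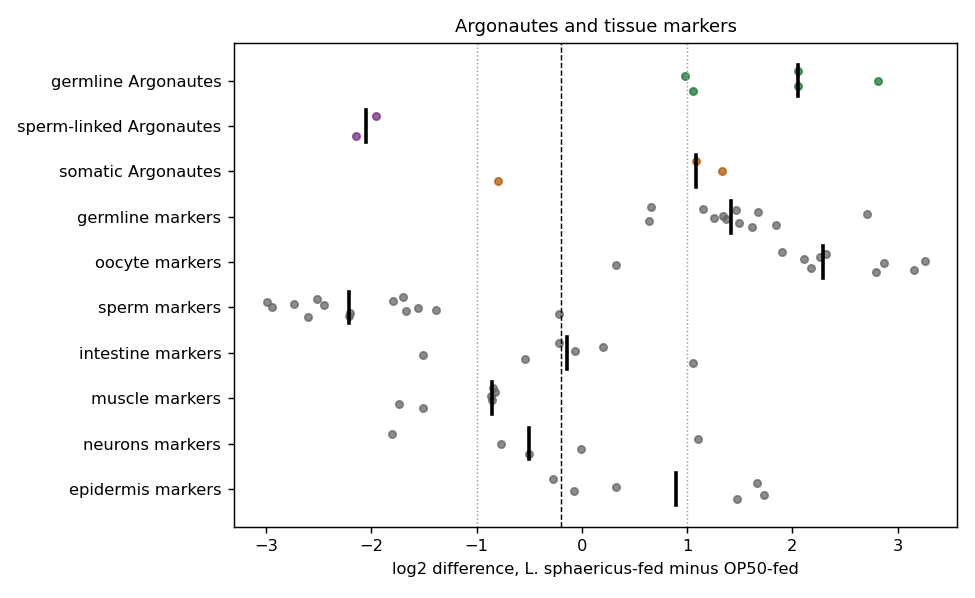
Log2 difference, L. sphaericus-fed minus OP50-fed, of the Argonaute groups (coloured) and of tissue markers (grey), each point a gene and each thick bar a median. The dashed line is the median of all genes at −0.20 and dotted lines mark 2-fold; oocyte markers have a median of 2.29 and sperm markers one of −2.21.

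Markers of body tissues were less far from the median of all genes. Relative to it, the medians were 0.05 for 6 intestine markers, −0.66 for 6 muscle markers, −0.31 for 5 neuron markers and 1.09 for 6 epidermis markers. The somatic members stood at −0.60 for alg-1, 1.28 for rde-1 and 1.53 for alg-2 on this scale. Intestine, muscle and epidermis each had all 6 listed markers measured on both arrays, and unc-17 had no named probe among the neuron markers.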

How the data were processed

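Per the file headers, Agilent Feature Extraction 11.0.1.1 read 1-colour images of both arrays and wrote background-subtracted intensity values, with their error and flags such as well above background, for each spot; flags are other marks and not levels. The deposited series table holds the same intensity per probe, within 0.01 log2 units for 43562 of 43579 probes on the L. sphaericus-fed array and for 43559 on the OP50-fed array, linear and not scaled or centred. Per the labels, Cy3 cRNA was made from 0.5 ug of total RNA.

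Control spots and 36 outlier spots were left out, log2 signals of a probe's spots were averaged, and each array was scaled by the 75th percentile of its non-control probes (numpy 2.4.6, pandas 2.3.3). A probe counts as measured if well above background on both arrays (31043 probes), and genes with several such probes take their median. Probes were named through RefSeq genes of WBcel235 (34298 of 43579 matched, 19807 genes). Coordinates are left out because the array was designed on another build. The listed names mut-2, cde-1 and ntl-1 were looked up as rde-3, cid-1 and let-711; tofu-3, and trp-3 (another name of spe-41), were not in the table. The median SD between probes of a gene was 0.18 over 2761 genes with at least 3 probes. The number of arrays limits the precision.

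Named are the 10 members, the 2 highest and 2 lowest genes at least 2-fold apart of each pathway list, and the 3 pathway genes closest to each group median; other genes named here were chosen after their values were seen. Members and lists were chosen with earlier results of these data known. Alternatives were normexp (limma 3.58.1, offset 50, on the median spot signal since the files hold no mean), other scalings, quantile and lowess centring (span 0.3), filters on dim probes, probe summaries, the deposited table, folds of 1.5 and 3, and other memberships. The gene calls were also run on simulated data, which say nothing about the spread between worm populations.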

Additional observations from a re-analysis of the deposited data

How the results depend on the processing

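Set against the median over all genes, each of the 10 Argonautes, the 3 groups and the pathway genes kept their side of it in every setting tried. The 3 differences between group medians kept their sign. Median scaling, the 75th percentile over detected probes, no scaling and ribosomal scaling shift all genes by the same amount, so these relative values could not change there. The deposited table holds nearly the same intensities. Only the other settings could have turned a side. For the 8 members with 1 probe, filters on dim probes and probe summaries left the difference unchanged and moved only the median of all genes. Apart from the deposited table, only normexp, quantile normalization and loess centring changed the values of these probes relative to each other. The match by sequence name alone does not find alg-2 and alg-3. The median of all genes itself was 0.45 with median scaling, −0.40 with the 75th percentile over detected probes, 0.10 with quantile normalization, 0.09 with loess centring, 1.03 with no scaling and 0.62 with ribosomal scaling, against −0.20. Genes higher on the L. sphaericus-fed array made up 40.4% of all 2-fold genes, against 64.6%, 31.6%, 50.5%, 49.7%, 81.4% and 69.9% in these settings, in that order. The members at least 2-fold higher numbered 7 with median, ribosomal and no scaling, against 37.9%, 41.6% and 50.6% of all measured genes. They numbered 4 with detected probes, quantile and loess, against 17.2%, 26% and 24.7%, and there csr-1 and rde-1 dropped below 2-fold. Those lower numbered 0 with no scaling (11.6% of all genes), 3 with detected probes (37.2%) and 1 of 8 with sequence names alone (32.7%). A 3-fold threshold left 3 higher. Relative to all genes, the germline median was 1.85 with quantile normalization, 1.65 with loess, 2.53 without the filter on dim probes, 1.998 with bright probes only, 1.75 without ergo-1 and 1.99 as a mean. The somatic median was 0.78, 0.65, 1.56 and 1.03 in the first 4 of these, 0.35 with sequence names alone, 0.46 without rde-1 and 0.73 as a mean. The sperm-linked median was −1.61 with normexp, −1.58 without the filter, −2.26 with bright probes only and −1.43 with sequence names alone. Germline minus sperm-linked was 3.68 with quantile normalization, 3.42 with loess, 3.69 with sequence names alone, 3.60 without ergo-1 and 3.84 as means. Somatic minus sperm-linked was 2.60, 2.42 and 1.78 in the first 3 of these, 2.32 without rde-1 and 2.59 as means. Germline minus somatic was 1.91 with sequence names alone, 1.78 without rde-1, 0.47 without ergo-1 and 1.25 as means. The pathway genes' median was 1.08 with quantile normalization, 0.95 with loess and 1.57 without the filter. Their 2-fold counts were 76 higher and 1 lower with no scaling, 10 lower with detected probes, 11 lower at 1.5-fold and 18 higher at 3-fold. Over all genes, counts higher and lower were 5798 and 3177 with median scaling, 7749 and 1770 with no scaling and 6370 and 2740 with ribosomal scaling; 3287 were lower with bright probes only, and 1510 higher and 3321 lower at 3-fold. With median scaling, detected probes, no scaling and ribosomal scaling, the median of all genes and the 2-fold counts moved with the common shift. The cause of the other changes was not tested, except that fewer probes or members enter where some are left out. The match by sequence name and the single alg-4 probes (−2.08 and −1.44 relative to all genes) were chosen after seeing the data, and the planned match to gene names was not run because the files hold no such column. No paired analysis was possible because each diet has 1 array. Spread between worm populations is unknown, and 8 of the 10 members rest on 1 probe.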
